A study of Mus musculus with 4 samples.

Results

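The loci of Bcl11a and Bcl11b, the paired members of a small family of zinc-finger transcription factors, were followed through ATAC-seq peak lists of flow-sorted MPP3 cells of mouse marrow. Each locus was taken as the gene body with 200 kb on either side on build mm10. Peaks of the 4 libraries that shared at least 1 bp were joined into regions, which gave 55 regions at these 2 genes among 77914 in the genome, 41 at Bcl11a and 14 at Bcl11b. MPP3 cells are multipotent blood progenitors that lean towards granulocytes and monocytes. ATAC-seq marks open chromatin by letting a transposase insert sequencing adapters where DNA is accessible. All libraries came from WT-iMOS mice aged 3 months, 2 with the genotype label WTiMOS_T1 (T1) and 2 with WTiMOS_T2 (T2). The labels explain neither T1 and T2 nor iMOS. They do not tie the replicates to separate animals, so the spread between replicates may be technical. The series asks about the role of Bcl11a within MPP3 cells.

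BCL11A and BCL11B bind DNA through C2H2 zinc fingers and repress genes together with the NuRD complex and other corepressors. BCL11A is needed for lymphoid development and silences fetal globin genes in red cell precursors, and in erythroid cells its own level depends on an enhancer cluster in the second intron. BCL11B is the factor that commits early thymocytes to the T lineage, and its activation in thymocytes involves an enhancer that lies far beyond the 3′ end of the gene. Positions of these known enhancers were not used here, so no region below is assigned to them.

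Both genes were oriented by the RefSeq start sites of GRCm38.p6, the assembly that mm10 names. Bcl11a lies on the plus strand of chromosome 11, at 24076564 to 24173558, with its start site at 24080695. The RefSeq gene model begins 4131 bp upstream of that site. Bcl11b lies on the minus strand of chromosome 12, at 107910403 to 108004145, with its start site at 108003414 and 731 bp of gene model upstream of it. Exon positions were not used here, so regions in a gene body are not sorted into exons, introns and UTRs. The RefSeq start-site windows (250 bp before to 50 bp after the site, 5′ to 3′ on the gene's strand) are shown because accessibility differed there. Capitals mark bases inside a region that had a peak in all 4 libraries. The window of Ccnk, a cyclin gene on the plus strand in the Bcl11b locus, is shown for contrast. It lies in a region of that kind, which also covers an end of the neighbouring gene Setd3. The windows lie at chr11:24080445-24080744, chr12:108003365-108003664 and chr12:108179488-108179787.
Bcl11a: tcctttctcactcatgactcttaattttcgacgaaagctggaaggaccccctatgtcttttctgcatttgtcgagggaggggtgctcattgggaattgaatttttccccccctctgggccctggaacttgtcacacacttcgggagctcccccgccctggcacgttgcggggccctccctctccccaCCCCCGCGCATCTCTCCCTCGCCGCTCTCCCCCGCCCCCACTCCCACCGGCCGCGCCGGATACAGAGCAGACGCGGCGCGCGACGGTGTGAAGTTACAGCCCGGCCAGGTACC
Bcl11b: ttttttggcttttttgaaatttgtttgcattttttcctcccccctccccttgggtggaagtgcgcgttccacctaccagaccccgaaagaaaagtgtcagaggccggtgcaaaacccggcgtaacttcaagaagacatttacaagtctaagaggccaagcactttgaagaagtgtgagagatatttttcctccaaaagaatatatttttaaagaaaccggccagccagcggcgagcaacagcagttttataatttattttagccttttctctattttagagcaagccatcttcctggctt
Ccnk: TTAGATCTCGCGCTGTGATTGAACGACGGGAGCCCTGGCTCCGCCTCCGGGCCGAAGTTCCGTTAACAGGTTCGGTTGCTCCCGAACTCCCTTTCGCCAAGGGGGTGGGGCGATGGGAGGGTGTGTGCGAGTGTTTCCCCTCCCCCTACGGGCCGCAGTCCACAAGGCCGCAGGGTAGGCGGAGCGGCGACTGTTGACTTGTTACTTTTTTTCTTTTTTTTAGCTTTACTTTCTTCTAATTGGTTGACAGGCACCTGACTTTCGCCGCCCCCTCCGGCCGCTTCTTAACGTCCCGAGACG

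The open region at Bcl11a began inside its window and covered the last 113 bases, so it lay mainly downstream of the start site. At Bcl11b 0 of the 300 bases lay in a region of any library. At Ccnk all 300 did. The upstream end of the Bcl11b gene model, 731 bp before the start site, lies outside its window. A region spanning that end, at 108003915 to 108004282, had a peak in T1 replicate 1 and in both T2 libraries. Among 21263 such windows of protein-coding genes, 56.4% overlapped a region with a peak in all 4 libraries. The Bcl11a window held 23 CpG dinucleotides and 63.0% G and C, the Bcl11b window 9 and 43%, and the Ccnk window 26 and 58.7%, where the medians over all windows were 13 and 56.3%. On both strands, overlapping matches included, the GC box GGGCGG occurred 2 times at Bcl11a, 0 times at Bcl11b and 1 time at Ccnk, and 46.2% of windows held it. The TATA sequence TATAAA occurred 1 time at Bcl11b and 0 times at the others (12.6% of windows), and CCAAT occurred 1 time at Bcl11a and at Ccnk and 0 times at Bcl11b (38.2%). TGACCA, a sequence that BCL11A is known to bind, was found in none of these 3 windows and in 12.5% of all windows. The ETS sequence CCGGAA (18.7%), the RUNX sequence TGTGGT (15%), the GATA sequence AGATAA (9.65%) and the E-box CACGTG (7.84%) were also in none of the 3.

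For the strength of a peak, the −log10 q of the authors' peak caller is used, which measures its significance over local background within its own library. Because the lists differ in length, a peak is also given by its place in its list, as a percentile where 0 is the strongest peak and 100 the weakest. The lists hold 58454 and 54045 peaks for T1 replicates 1 and 2 and 66764 and 62704 for T2 replicates 1 and 2, on chromosomes 1 to 19, X and Y. Sequencing depth is unknown, since peak lists carry no read counts. With 2 libraries against 2, an exact two-sided permutation test cannot give a p below 0.333, so no test across libraries was run. In bulk libraries, fewer cells with an open site and less openness per cell cannot be told apart.

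Of 12 progenitor and granulocyte-monocyte markers with a RefSeq start site, 8 had a peak within 1 kb of it in all 4 libraries. Kit, Flt3, Cd34, Cd48 and Cebpa were among these. Per library 10 and 9 markers had one in T1 and 10 and 11 in T2. Over protein-coding genes, 56.4% of the narrower 300 bp start-site windows overlapped a region with a peak in all 4 libraries. The share of all genes within 1 kb was not computed, so these counts do not test the label. Mpo, which encodes myeloperoxidase, had a peak in both T2 libraries, at list percentiles of 48.9 and 54.6, and in neither T1 library. Slamf1 lacked one in T1 replicate 2 and Ctsg in T2 replicate 1, and Elane had none in any library. Of 10 T cell markers 4 did (Lat, Tcf7, Gata3 and Cd5), and Cd3e, Cd3d, Cd3g, Cd8a and Il2ra had none in any library. Per library, T cell markers with a peak numbered 4 and 4 in T1 and 4 and 5 in T2, the extra one being Lck. B cell markers numbered 3 and 4 against 4 and 5 of 6, erythroid markers 3 and 3 against 4 and 4 of 8 (Hbb-bt, Hbb-bs, Hba-a1 and Alas2 had none in any library), and NK and innate lymphoid markers 3 of 5 in each library. Their part in the counts at the 2 loci was not tested.

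The Bcl11a locus was widely open in both groups. Of its 41 regions 25 had a peak in all 4 libraries (61.0%, 95% Wilson interval 45.7 to 74.3, counting error only), where 56.8% of all regions of the genome did. T1 replicate 1 had a peak in 31 regions, T1 replicate 2 in 28, T2 replicate 1 in 37 and T2 replicate 2 in 34. That is 29.5 ± 2.12 regions in T1 and 35.5 ± 2.12 in T2 (SD, n = 2 per group), and the groups did not overlap. The T2 lists are longer over the whole genome too, where T1 libraries had a peak in 74.4% and 68.3% of regions and T2 libraries in 84.9% and 79.2%. At Bcl11a the shares were 75.6% and 68.3% in T1 and 90.2% and 82.9% in T2. Counted per length, the locus held 8.25 regions per 100 kb, more than 74.3% of 21887 protein-coding genes measured the same way (median 5.30). The gene body alone held 8 shared regions, more than 97.7% of protein-coding genes, a count that is not scaled by gene length. The shared regions of the locus were weaker than the genome's in every library. Their median list percentiles were 55.2 and 53.4 in T1 and 47.6 and 51.4 in T2. Over all shared regions of the genome these were 38.3 and 41.5 in T1 and 33.6 and 35.9 in T2.

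The Bcl11b locus held few peaks, and 10 of its 14 regions lay upstream of the gene. Of its 14 regions 2 were shared by all 4 libraries (14.3%, 95% Wilson interval 4.01 to 39.9, counting error only). The share over the genome was 56.8%. T1 replicate 1 had a peak in 6 regions, T1 replicate 2 in 3, T2 replicate 1 in 10 and T2 replicate 2 in 11, or 4.5 ± 2.12 against 10.5 ± 0.707 (SD, n = 2 per group). These groups did not overlap either. The shares were 42.9% and 21.4% in T1 and 71.4% and 78.6% in T2. Over the genome they were 74.4% and 68.3% in T1 and 84.9% and 79.2% in T2, where the T2 lists are longer. Without T1 replicate 2, 4 regions were shared by the other 3 libraries. The locus held 2.84 regions per 100 kb, and 29.5% of genes had fewer. It held 0.405 shared regions per 100 kb (median of all genes 3.06), and 15.3% of genes had fewer. At Bcl11a the value was 5.03, and 73.9% had fewer. The 200 kb downstream of the gene held 0 peaks in all 4 lists, the gene body held 4 regions and the upstream flank held 10. Setd3, a histidine methyltransferase gene, and Ccnk reach into that flank, as does Ccdc85c with 0 regions, and both shared regions lie in their bodies. Outside them 8 regions were left, 0 of them shared, and T1 replicate 1 had 3 of them, T1 replicate 2 had 0, T2 replicate 1 had 6 and T2 replicate 2 had 5.

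**Figure D1:**
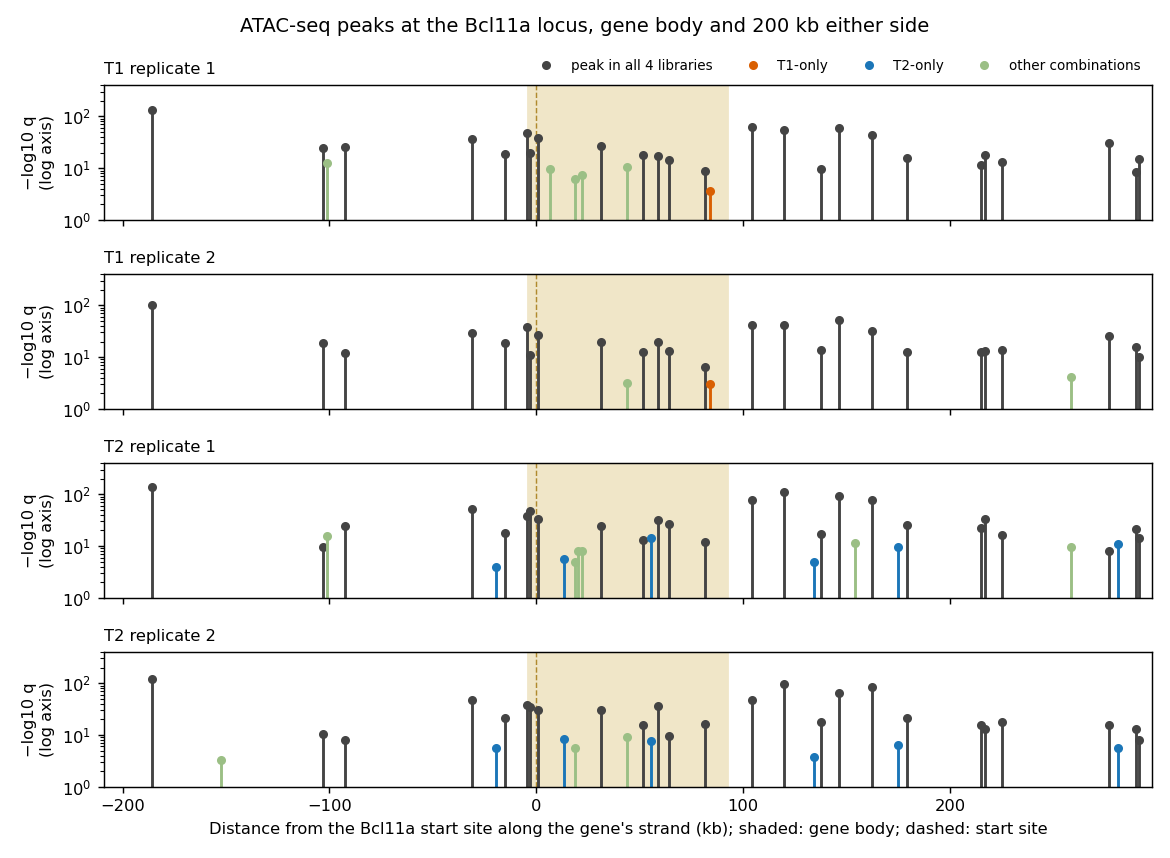
Peaks at the Bcl11a locus in each library; the x axis is distance from the start site in kb, the y axis −log10 q on a log scale, and each stem is the strongest peak of a region, coloured by which libraries hold it. The 25 shared regions spread over both flanks and the gene body, and the 6 T2-only regions are short stems, none above a −log10 q of 14.2.

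**Figure D2:**
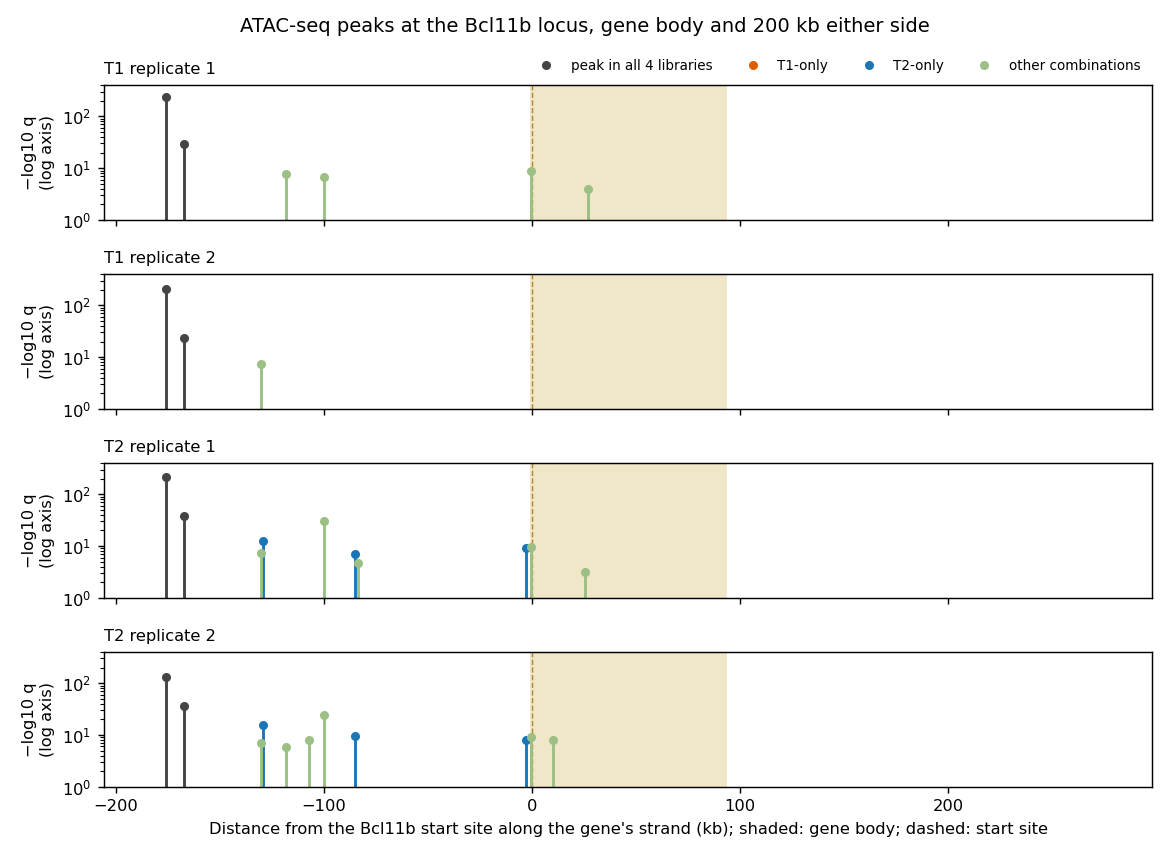
Peaks at the Bcl11b locus, drawn in the same way with the gene running to the right. The downstream 200 kb hold 0 peaks, and the 2 shared regions stand at the far upstream edge, in Setd3 and Ccnk.

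At the Bcl11a start site, 3 shared regions lay within 5 kb. The region on the start site itself spanned 24080632 to 24082023, from 63 bp before the site to 1328 bp after it, and reached a −log10 q of 38.0 and 27.0 in T1 (replicate 1, then 2, here and below) and 33.8 and 31.0 in T2. Its list percentiles were 34.2 and 40.6 in T1 and 38.5 and 38.2 in T2, so the groups overlapped on that scale. Ranked only among the 44274 regions that all 4 libraries hold, it stood higher in T1, at percentiles of 44.8 and 49.0 against 56.7 and 53.0 in T2, a difference of 7.92 points. Ranked there by fold, both T1 libraries also stood above both T2 libraries. The summits lay 623 and 662 bp after the site in T1 and 368 and 380 bp after it in T2. T2 replicate 2 had 2 peaks in this region, and the values are those of its stronger one.

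Further upstream, a region at 24077172 to 24078107 (3.1 kb before the start site, inside the gene model) stood higher in T2. Its −log10 q was 19.8 and 10.8 in T1 and 48.4 and 34.7 in T2, at list percentiles of 55.2 and 72.1 against 28.1 and 34.6. Only 363 bp away, the region at 24076062 to 24076808 showed values of 48.3 and 37.5 in T1 and 37.8 and 37.2 in T2, with list percentiles of 27.6 and 30.2 against 35.1 and 32.4. The order of the groups was thus opposite in these neighbours. In the first, summits were scattered over 407 bp between libraries, and in the second they agreed within 6 bp. This second region spans the upstream end of the Bcl11a gene model, at 24076564. It also overlaps A830031A19Rik, a transcript of unknown function that ends next to Bcl11a.

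These 3 regions were significant but low in fold. Their deposited fold over local background ran from 3.30 to 6.17, where the other 22 shared regions of the locus had a median of 8.58. Ranked among all 44274 shared regions of the genome, their mean percentiles were 42.6 to 60.5 by −log10 q and 91.1 to 97.4 by fold. They were 747 to 1392 bp wide, and the other 22 had a median width of 638 bp.

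**Figure D3:**
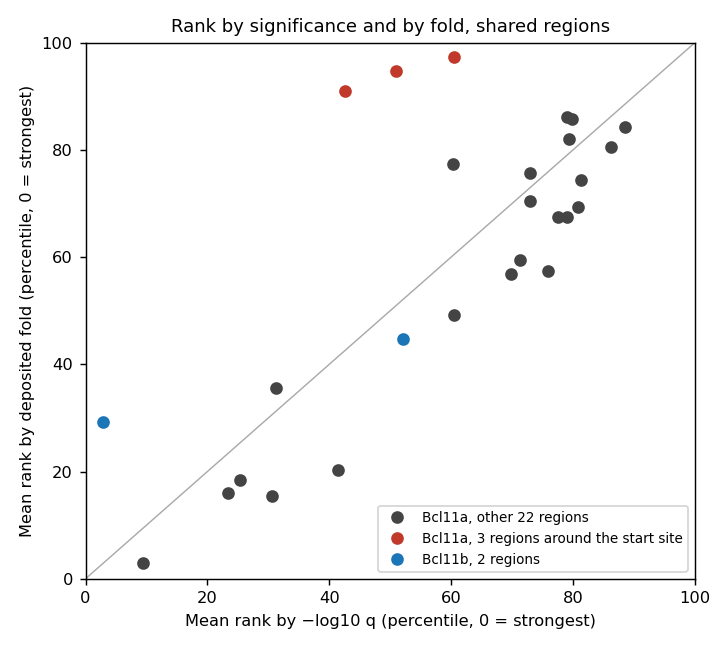
Each point is a shared region at Bcl11a or Bcl11b, placed by its mean percentile over the 4 libraries among all shared regions, by −log10 q (x axis) and by deposited fold (y axis); 0 is strongest and the line marks equal ranks. The 3 regions around the Bcl11a start site stand far above the line, with fold percentiles of 91.1 to 97.4.

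The strongest peaks of the Bcl11a locus lay outside the gene. First was the region at 23894621 to 23895562, 185.6 kb upstream, on the end shared by Papolg, a poly(A) polymerase gene, and the lncRNA Gm12061, with −log10 q of 131 and 103 in T1 and 136 and 120 in T2. The next 4 by mean rank all lay in the 3′ flank, between 104.5 and 162.5 kb from the start site. The region at 24200190 to 24200928, 119.9 kb downstream and inside the lncRNA Gm12066, showed 54.4 and 41.4 in T1 and 112 and 97.1 in T2. The region at 24226634 to 24227350 (146.3 kb, inside the lncRNA Gm33440) had 59.2 and 52.0 in T1 and 91.4 and 64.0 in T2. At 24184835 to 24185583 (104.5 kb, in no annotated gene) the values were 61.5 and 41.8 in T1 and 78.0 and 47.2 in T2. At 24242869 to 24243523 (162.5 kb, also inside Gm33440) they were 43.7 and 31.4 in T1 and 78.1 and 84.6 in T2. The list percentiles of these 4 regions ran from 21.4 to 35.6 in T1 and from 9.40 to 25.5 in T2, and those of the start-site region from 34.2 to 40.6 over all libraries. At 104.5 kb the groups overlapped. Ranked by fold among shared regions, they overlapped at 104.5, 146.3 and 162.5 kb. At 119.9 kb the fold was 14.9 and 15.1 in T1 and 16.4 and 16.6 in T2. Summits at the Gm12066 region agreed within 12 bp and at the 146.3 kb region within 6 bp.

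Inside the Bcl11a gene, the other shared regions were spread along the body and ranked below the middle of all shared regions. Those at 31.3, 51.4, 58.8, 64.0 and 81.6 kb from the start site had −log10 q between 6.54 and 35.8. Their mean percentiles by −log10 q among all shared regions of the genome ran from 60.4 to 88.6. The region at 24139206 to 24139870 (58.8 kb) had 17.2 and 19.96 in T1 and 31.7 and 35.8 in T2. The region at 24144348 to 24144968 (64.0 kb) had 14.3 and 13.0 in T1 and 26.5 and 9.53 in T2, so the T2 replicates lay on either side of T1. The region at 24131879 to 24132320 (51.4 kb) had 18.3 and 12.5 in T1 and 12.9 and 15.8 in T2. Ranked among shared regions it stood higher in T1, at percentiles of 72.5 and 78.0 against 89.6 and 79.2, and by fold T1 was higher too, by 15.4 points. At 58.8 kb the same ranking put T2 higher, by 14.4 points, but by fold the groups overlapped.

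To compare the groups on equal terms, shared regions were ranked again among the 44274 regions that all 4 libraries hold. At Bcl11a both T2 libraries ranked above both T1 libraries in 8 of 25 shared regions (32.0%) and below them in 6 (24.0%), and in 11 the groups overlapped. Without T1 replicate 1 the counts ordered towards T1 and T2 were 10 and 8, and without T2 replicate 1 they were 10 and 11. Without T1 replicate 2, or without T2 replicate 2, they were 8 and 12. Fewer ranks then have to be in order, by construction, and the genome's shares were not computed for these runs. Ranked by fold, the count ordered towards T2 was 4. Over all shared regions of the genome 26.3% were ordered T2 above T1 and 26.2% T1 above T2, so the locus is close to the background. The median difference at Bcl11a was 0.454 percentile points towards T2. The 12 shared regions of the 3′ flank held 4 ordered towards T2 and 2 towards T1, and the 8 of the gene body held 3 of each.

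Single regions moved far in both directions. The largest differences towards T2 were 30.6 percentile points at the region 3.1 kb upstream, 20.5 at 162.5 kb and 19.01 at 119.9 kb downstream. Of all shared regions 0.734%, 3.73% and 4.67% were as far or farther towards T2. These 3, like those towards T1 below, were picked as the largest among 25 shared regions, which lowers such shares by selection. At the 119.9 kb region the percentiles were 32.4 and 33.3 in T1 and 14.4 and 13.3 in T2. Among regions whose groups did not overlap, the largest towards T1 was 36.2 points, at 24357168 to 24357716 (276.7 kb downstream), where the percentiles were 52.4 and 51.3 in T1 and 96.8 and 79.1 in T2. Second was 29.7 points, at 23977044 to 23977651 (103.3 kb upstream), with 61.8 and 63.4 in T1 and 94.5 and 90.2 in T2. Next was 12.3 points, at the region 4.3 kb upstream. Of all shared regions 0.646%, 1.34% and 11.2% were as far as these 3 or farther towards T1. At 92.7 kb upstream the difference was 12.7 points, but the groups overlapped, with 60.1 and 79.1 in T1 and 69.9 and 94.7 in T2. Ranked by fold instead of −log10 q, T2 minus T1 came to -3.51 points at the region 3.1 kb upstream, -6.70 at 162.5 kb and -7.37 at 119.9 kb, where a negative value means stronger in T2. At 162.5 kb the groups then overlapped. The difference by fold was 42.3 points at 276.7 kb and 31.9 at 103.3 kb upstream.

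**Figure D4:**
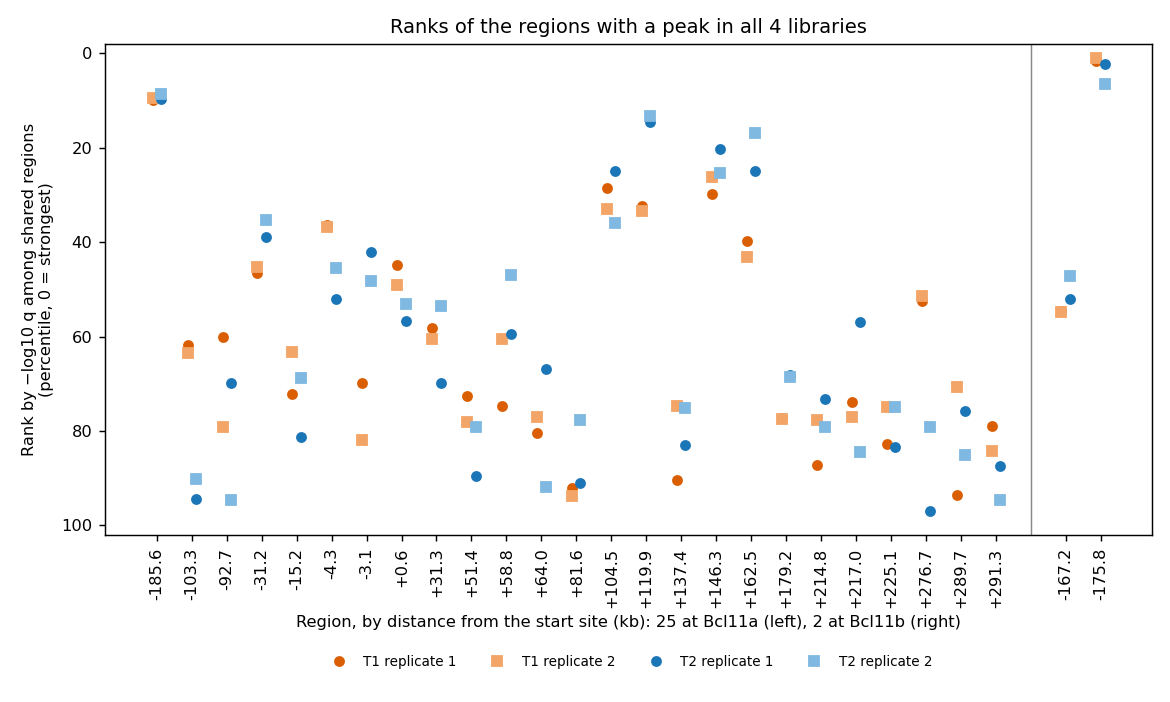
Rank of each shared region in each library, as a percentile among the 44274 regions that all libraries hold (y axis, 0 at the top is strongest); the x axis lists the 25 regions of Bcl11a and the 2 of Bcl11b by distance from the start site in kb. The T2 points stand clearly above the T1 points at -3.1, +119.9 and +162.5 kb and clearly below them at -103.3 and +276.7 kb.

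Regions found in a single group were weak at Bcl11a. T2-only regions, with a peak in both T2 libraries and neither T1 library, numbered 6 of 41 (14.6%, genome 6.88%), and T1-only regions 1 of 41 (2.44%, genome 2.33%). The 6 T2-only peaks had list percentiles of 68.0 to 98.0 in T2 replicate 1 and 82.4 to 97.9 in T2 replicate 2. All thus lay in the weaker part of their lists. Their medians were 86.6 and 90.6, where those of all T2-only peaks of the genome were 76.4 and 79.5. The −log10 q of these 6 ran from 4.01 to 14.2 and from 3.76 to 8.36. The region 19.6 kb upstream, inside A830031A19Rik, had 4.01 and 5.70, and the one 13.6 kb into the gene had 5.62 and 8.36. In the 3′ flank the region at 134.3 kb, inside Gm12066, had 4.85 and 3.76. Farther out lay the regions at 24255325 to 24255596 (174.8 kb, inside Gm33440), with 9.69 and 6.44, and at 24361933 to 24362290 (281.4 kb), with 11.1 and 5.6. With every list shortened to the 54045 strongest peaks, 1 T2-only region was left, the one at 24136167 to 24136507 (55.6 kb, in the gene body), whose −log10 q was 14.2 and 7.64. When each list kept only peaks whose −log10 q reached 10, 1 region was T2-only too, but it was the shared region at 81.6 kb, which had 8.97 and 6.54 in T1 and 12.1 and 16.4 in T2. The single T1-only region, at 24163986 to 24164999 (83.8 kb, in the body and inside the lncRNA 4930538E20Rik), stood at list percentiles of 98.3 and 99.2. It was lost when peaks had to reach a −log10 q of 5 and when lists had equal lengths. Without T1 replicate 2, or without T2 replicate 2, the T1-only count was 2.

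The remaining 9 regions of Bcl11a had peaks in other combinations, 4 of them in 1 library alone, 3 in 1 library of each group and 2 in 3 libraries. A cluster of these lay between 18.6 and 21.9 kb in the gene body, where T1 replicate 2 had 0 peaks. At 18.6 kb the −log10 q was 6.10 in T1 replicate 1 and 4.83 and 5.58 in T2. Absence in a list means only that no peak reached a −log10 q of about 2.

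At Bcl11b the gene body held 4 regions, of which 3 had a peak in 1 library each. The fourth, at 108003915 to 108004282, lay 501 bp upstream of the start site and spanned the upstream end of the gene model. Its −log10 q was 8.74 in T1 replicate 1 and 9.74 and 8.97 in T2. It had no peak in T1 replicate 2, which held 0 peaks in the whole gene body. The list percentiles there ran from 79.6 to 81.3, against 34.2 to 40.6 for the Bcl11a start-site region. The other 3 body regions lay 10.2, 25.4 and 26.9 kb from the start site, with −log10 q of 7.97, 3.13 and 3.92, and the rest of the body held 0 peaks.

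T2-only regions at Bcl11b numbered 3 of 14 (21.4%, genome 6.88%) and T1-only regions 0 (genome 2.33%), or 1 without T1 replicate 2. One of them lay 2.9 kb upstream of the start site, at 108006073 to 108006496, with −log10 q of 8.98 and 8.18. The next, at 108088210 to 108088669 (85 kb upstream, between the genes), had 6.94 and 9.66. The strongest, at 108132553 to 108132978 (129.4 kb upstream), lies inside Setd3 and had 12.7 and 15.5, and it alone stayed T2-only at equal list length. Without T1 replicate 1, without T2 replicate 1 or without T2 replicate 2 the T2-only count was 5.

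Outside other genes, the strongest region of the Bcl11b locus was at 108103265 to 108103796, 100.1 kb upstream, a region singled out after its values were seen. Its −log10 q was 6.71 in T1 replicate 1, absent in T1 replicate 2, and 30.01 and 24.2 in T2. The list percentiles were 88.0 against 42.3 and 46.5, so T2 stood higher in both replicates. When only peaks whose −log10 q reached 10 were kept, this region became T2-only, which follows from these values by construction. The one on the Setd3 and Ccnk ends, at 108178378 to 108180072, showed −log10 q values of 238 and 205 in T1 and 218 and 133 in T2. The one at 108170370 to 108170955 inside Setd3 had 29.6 and 23.2 in T1 and 37.9 and 35.6 in T2. Re-ranked among shared regions they differed by 3.01 points towards T1 and 5.05 towards T2, and the first difference was 0.803 without T2 replicate 2. Ranked by fold, the groups overlapped at both.

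**Figure D5:**
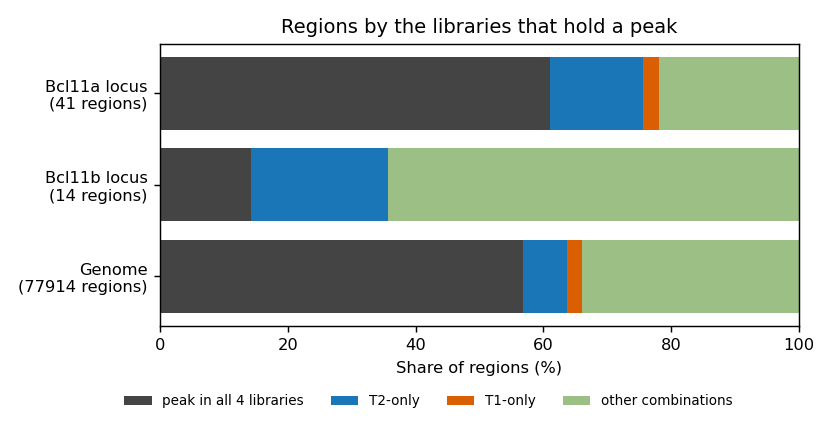
Share of regions (x axis, percent) by the libraries that hold a peak, for the Bcl11a locus, the Bcl11b locus and the genome. Shared regions make up 61.0% at Bcl11a, 14.3% at Bcl11b and 56.8% of the genome, and regions of other combinations fill most of the rest at Bcl11b.

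Other genes with a like pattern were sought among protein-coding genes with at least 20 regions in the same window, by the distance between their shares of regions with a peak in each of the 4 libraries. For Bcl11a the 3 nearest were Ccdc15, Camk2b and Map2k3, at 0.944, 1.06 and 1.45 percentage points. For Bcl11b they were Tspan5, Dspp and Nr2e1, at 18.8, 19.8 and 20.5 points. Bcl11b itself has 14 regions, below the limit, and genes as sparse as it were left out. These distances therefore cannot tell whether its pattern is unusual.

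Genes of the BCL11 partner list were compared within 50 kb. T2-only regions occurred at 15 of 30 partner genes, where 35% of protein-coding genes had one, and T1-only regions at 8 of 30, against 13.6%. Counted over their regions, 26 of 466 were T2-only (5.58%), 11 were T1-only (2.36%) and 300 were shared (64.4%), near the genome's 6.88%, 2.33% and 56.8%. Among the 151 regions of the 12 NuRD genes, 5 were T2-only and 2 T1-only. Of the 6 other corepressor genes, with 4 and 1 among 69, Rcor1, a subunit of the CoREST complex, had 3 and 0 among 16. The 12 DNA-binding partners and globin regulators had 17 and 8 among 246. Runx1 had 5 and 3 among 35, Zfpm1 (the GATA cofactor FOG-1) 3 and 1 among 28, and Nfia 2 and 2 among 46. Single genes are named for having the most group-only regions, so their counts are high by selection.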

How the data were processed

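ATAC-seq peak lists of 4 MPP3 libraries (T1 and T2, 2 each, grouped by the labels) were used. The submitters' processing notes name Bowtie2, SAMtools, MACS2 and build mm10. Their versions and settings, and any shift for the transposase, were not given in the sources used here. There is 1 list per library. The deposited fold (a ratio of summit to local background), the deposited −log10 p and −log10 q, the deposited score (10 times −log10 q without decimals) and the deposited summit offset are the authors' own values within a list. They are not read counts, so no count model was fitted and depth is unknown.

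On chromosomes 1 to 19, X and Y, peaks were joined across lists where they shared 1 bp. A library's value is its strongest peak in the region. Ranks used −log10 q, with ties ordered by fold (whole lists) or position (shared regions). Gene bodies, start sites and sequences came from RefSeq tables on GRCm38.p6. Motifs were counted on both strands. Joining and ranking were tested on simulated lists. Members, lists and motifs were chosen with earlier results of these data known. Regions named are those at start sites, T1-only and T2-only regions, the 5 best-ranked shared regions per locus and up to 3 with the largest group difference per direction. Other regions were chosen after their values were seen. Partner genes named are those with the most group-only regions. Like genes exclude predicted models. The alternatives were stricter peaks, equal list lengths, 250 bp either side of summits, peaks covering at least 0.5 of a region, flanks of 50 kb or 1 Mb, ranks by fold and leaving out each library. Python 3.11.15, numpy 2.4.6, pandas 2.3.3, scipy 1.17.1 and matplotlib 3.10.9 were used.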

Additional observations from a re-analysis of the deposited data

How the results depend on the processing

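At Bcl11a, shared regions numbered 25, and 13 with 50 kb and 41 with 1 Mb either side. T2-only regions numbered 6, and 1 among peaks whose −log10 q reached 10 and 1 with lists of equal length. The 1 T1-only region became 0 where −log10 q reached 5 or 10, with lists of equal length and with peaks covering at least 0.5 of a region, and 3 with 1 Mb either side. At Bcl11b, shared regions numbered 2, and 0 with 50 kb and 36 with 1 Mb. T2-only regions numbered 3, and 1 with lists of equal length, 1 with 50 kb and 6 with 1 Mb. Regions ranked higher in T1 at Bcl11a numbered 6, and 2 where −log10 q reached 10. Those ranked higher in T2 numbered 8, and 4 by fold. The 1 region ranked each way at Bcl11b became 0 by fold. Leaving out each library in turn, Bcl11a had 25 to 26 shared, 6 to 8 T2-only and 1 to 2 T1-only regions, with 8 to 10 ranked higher in T1 and 8 to 12 in T2. Bcl11b had 2 to 4 shared, 4 to 5 T2-only and 0 to 1 T1-only regions, with 1 to 2 ranked each way. With 3 libraries fewer have to meet each definition, by construction. The region 146.3 kb downstream of Bcl11a ranked 5.19 percentile points towards T2 and, by fold, 3.92 towards T1. The causes were not tested, but stricter peaks and narrower flanks leave fewer regions by construction, and equal length removes more T2 peaks. The other 9 shared regions named for their place or rank whose groups did not overlap kept their direction in every setting that kept the region, but by fold the groups overlapped at 3 of them, 162.5 kb downstream of Bcl11a and 167.2 and 175.8 kb upstream of Bcl11b. No paired analysis was possible because no result comes from a test, and the labels tie replicate numbers to no shared animal, batch or day.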

Other observations

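Flanks between 200 kb and 1 Mb from each gene were counted in the same way. Downstream of Bcl11b, where the gene body is followed by a long stretch with few genes, this held 3 regions, all 3 shared by the 4 libraries, 1 of them between 200 and 400 kb and 2 between 600 and 800 kb. The 400 to 600 kb and 800 to 1000 kb stretches held 0. Upstream of Bcl11b, around Eml1, Evl and Yy1, it held 51 regions, of which 31 were shared, 3 T2-only and 0 T1-only. Downstream of Bcl11a it held 9 regions and upstream, from Rel and Pus10 to Xpo1, 28, with 3 and 13 shared. Open regions of the Bcl11a 3′ flank were thus crowded into the first 200 kb, which held 17 with 12 shared.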
